A study of Mus musculus with 4 samples.

Results

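The telomerase ribonucleoprotein was represented by 10 genes of the 54021 gene symbols counted in these RNA-seq libraries. They were chosen by name: Terc, the RNA that carries the template for telomeric repeats, Tert, the reverse transcriptase, the H/ACA proteins Dkc1, Nhp2, Nop10 and Gar1, the assembly factors Naf1 and Shq1, the trafficking factor Wrap53 and the Terc 3′ end nuclease Parn. The libraries came from rOvaries, which are ovaries rebuilt from aggregates of primordial germ cells and gonadal somatic cells of fetal C57BL/6 × actin-GFP donors and grown under the kidney capsule of ovariectomized young adult females. All recipients were G2 Terc-/- mice on a C57BL/6 background, whereas the donors are not described as lacking Terc. Recipients of 1 group drank INK128, an inhibitor of the kinase mTOR, at 0.75 µM per g by the labels (the study's methods word the dose differently), recipients of the control group did not, and grafts were collected about 1 month after transplantation. Each group had 2 libraries (INK128 replicates 1 and 2, control replicates 1 and 3). The labels do not say whether libraries of a group came from separate recipients, so the p-values measure only the spread between these libraries. The Terc-/- genotype belonged to the host, so Terc reads in a graft are no check of the labels. In bulk tissue, fewer cells of a type and less RNA per cell cannot be told apart.

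Telomerase adds telomeric repeats to chromosome ends by copying a short template in Terc with the reverse transcriptase Tert. Vertebrate Terc ends in an H/ACA domain like that of the small RNAs that guide pseudouridylation, and it is held by the same 4 proteins, so Dkc1, Nhp2, Nop10 and Gar1 serve ribosomal RNA modification and splicing RNA modification as well as telomerase. Germ cells are among the cells known for telomerase activity, and recipients without Terc lose telomere length over generations.

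The 5′ and 3′ ends of the annotated mouse Terc transcript are shown because they carry the template and the ACA box bound by the proteins described here. The ends of the mature RNA were not measured. The gene lies on the minus strand of mm10 at chr3:96414437-96414859 as a single exon of 423 bases, and the nearest annotated gene, Gm21960, is 1076 bases away. In the first line the capitals mark the template letters at positions 29 to 36, and in the second the ACA box at positions 418 to 420. Positions were counted from the 5′ end of the annotated transcript.
Terc first 60 bases: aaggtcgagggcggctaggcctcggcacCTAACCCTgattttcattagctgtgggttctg
Terc last 60 bases: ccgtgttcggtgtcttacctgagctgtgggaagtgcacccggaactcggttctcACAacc

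The libraries held between 19130209 and 23029089 counts. The INK128 libraries resembled each other (Pearson r = 0.978 across genes on the log2 scale, 1.23% of genes more than 2-fold apart), and the control libraries did so less (r = 0.788, 14.2% of genes). Control replicate 1 stood apart by 1021 counts in 4 Y-linked genes, against 0 to 2 in the other libraries, and by a summed level of 4 Sertoli cell markers of 1080 CPM (read counts scaled to a common library total) against 68.1 to 130 elsewhere. Control replicate 3 stood apart by 12 oocyte markers, which summed to 43.7 CPM against 882 to 1210 elsewhere, and by 13 kidney markers, which summed to 1320 CPM. Of the 12 oocyte markers, 8 were higher in both INK128 libraries than in either control and 1 was lower, against 34.5% of all tested genes higher without overlap. Their sum was 1210 and 887 CPM under INK128 and 882 CPM in control replicate 1, so the low sum was that of control replicate 3 alone. Of the erythroid markers, 2 of 2 were higher under INK128 without overlap. The summed granulosa cell markers overlapped (6040 and 8040 CPM under INK128, 2810 and 6170 in controls), and of the 8 markers 4 were higher without overlap and 0 lower. Kidney markers summed to less under INK128 (72.4 and 146 CPM, against 524 and 1320 in controls). Of the 13, 11 were lower under INK128 without overlap, against 34% of all tested genes, and 1 was higher, with Slc12a1 at 0 in at least 1 library. Immune markers did the same (83.4 and 93.1 CPM against 165 and 251, 7 of 10 lower). The labelled tissue carried its 8 granulosa cell markers in each library. The part of these differences in the results below was not tested, and changes of call without 1 library are given for the telomerase genes.

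Terc was all but absent from the counts. It had 0 counts in each INK128 library, 1 count in control replicate 1 and 0 in control replicate 3. Pooled over the libraries this was 1 of 86557193 counts (exact Poisson 95% interval 0.0253 to 5.57 counts), a level of 0.0119 CPM with an upper bound of 0.066 CPM, and intervals of this kind cover counting error only. Terc was therefore not compared between the groups. The libraries are labelled as polyA RNA, and Terc, like other H/ACA RNAs, has no stable poly(A) tail; the part of this in the count was not tested. Other RNAs without a tail varied. The Y RNA Rny1 had 3 counts in INK128 replicate 1 and 0 elsewhere, and Rny3 had 0 in each library. Rmrp, the RNA of RNase MRP, had 5 and 28 counts under INK128 and 12 and 2 in controls, and the 7SK RNA Rn7sk had 24, 81, 50 and 14 counts in the same order.

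Tert was counted in all libraries at low level. It had 114 and 89 counts under INK128 and 160 and 156 in controls, which were 6.29 and 4.21 CPM against 7.28 and 6.76 CPM. Both INK128 libraries were below both controls, as were those of 35.3% of the 17631 genes with a mean above 1 CPM (66.1% did not overlap in 1 direction or the other). Tert did not reach a mean of 10 CPM, the filter of the main test, and in the fit of the genes above 1 CPM its log2 fold change was -0.37 (SE 0.39, adjusted p = 0.536, edgeR quasi-likelihood test with Benjamini-Hochberg adjustment). Without INK128 replicate 1 it was -0.70, and without INK128 replicate 2 it was -0.12. A change in Tert beyond the spread between libraries was not detected.

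The H/ACA core held the largest differences among the 10 genes. Nhp2, which binds the RNA stem and completes the core with Dkc1 and Nop10, had 154 and 161 CPM under INK128 and 64.7 and 70.4 CPM in controls. Both INK128 libraries lay above both controls by more than the spread in either group (158 ± 5.4 against 67.6 ± 4.08 CPM, SD, n = 2). Nhp2 rose 2.33-fold (log2 fold change 1.22, SE 0.16, adjusted p = 0.0464, edgeR). It was the 1 gene called among the 8 telomerase genes tested, where a call needed more than a 1.5-fold change with adjusted p under 0.05, and 6.37% of all 11758 genes with a mean above 10 CPM were called (3.18% higher and 3.19% lower). Its adjusted p was equal to the smallest in this fit, and Nhp2 was not called among genes above 1 CPM (adjusted p = 0.0555) or without either INK128 library (adjusted p = 0.381 without replicate 1 and 0.438 without replicate 2), at log2 fold changes between 1.16 and 1.28 whichever library was left out.

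Nop10, the small protein that seats Dkc1 on the RNA, had 1444 and 2715 counts under INK128 and 995 and 974 counts in controls. The groups did not overlap after scaling (104 ± 34.4 against 43.7 ± 2.16 CPM, SD, n = 2), but the INK128 libraries differed from each other. The log2 fold change was 1.25 (SE 0.28), and the test was narrowly missed (adjusted p = 0.0597, edgeR). Gar1, which joins the mature particle and promotes product release by the pseudouridine synthase, had 50.9 and 51.6 CPM under INK128 and 31 and 25.9 CPM in controls. Again the groups did not overlap, with a log2 fold change of 0.85 (SE 0.20, adjusted p = 0.0618, edgeR). Without control replicate 1 or control replicate 3, Nop10 was called (adjusted p = 0.0023 and 0.00367) and so was Gar1 (adjusted p = 0.00209 and 0.0107), but 45.8% and 42.6% of all genes were called in those fits. Without INK128 replicate 1 or 2 neither was called (adjusted p = 0.381 and 0.439 for Nop10, 0.4 and 0.462 for Gar1).

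Dkc1 encodes dyskerin, the pseudouridine synthase around which the core is built and the gene of X-linked dyskeratosis congenita. It had 67.1 and 48.7 CPM under INK128 and 45.1 and 47.1 CPM in controls. The lower INK128 library was close to the controls, and the difference of 0.33 on the log2 scale (SE 0.22, adjusted p = 0.337, edgeR) was within the spread between libraries. It rested on INK128 replicate 1, with a value of 0.07 without that library and 0.53 without INK128 replicate 2. The 4 core proteins sit in the particle in fixed proportion, and the ratios between their mRNAs were compared within libraries. The ratio of Nhp2 to Dkc1 read counts was 2.29 and 3.31 under INK128 and 1.43 and 1.49 in controls, and that of Gar1 to Dkc1 was 0.759 and 1.06 against 0.687 and 0.549. These ratios do not depend on library size, and both were higher in each INK128 library than in either control, but they compare genes of different exon length. With the length offsets described below, the log2 fold changes were 0.67 for Nhp2 and 0.40 for Gar1 against 0.35 for Dkc1 among genes above 10 CPM, and 1.08 and 0.75 against 0.51 among genes above 1 CPM. By contrast, the ratio of Nhp2 to Nop10 was 1.93 and 1.26 under INK128 and 1.43 and 1.67 in controls, and the groups overlapped. With 2 libraries against 2, an exact two-sided permutation test cannot go below p = 0.333, which is the value for each ratio whose groups did not overlap; the ratios were chosen after the counts were seen.

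**Figure D1:**
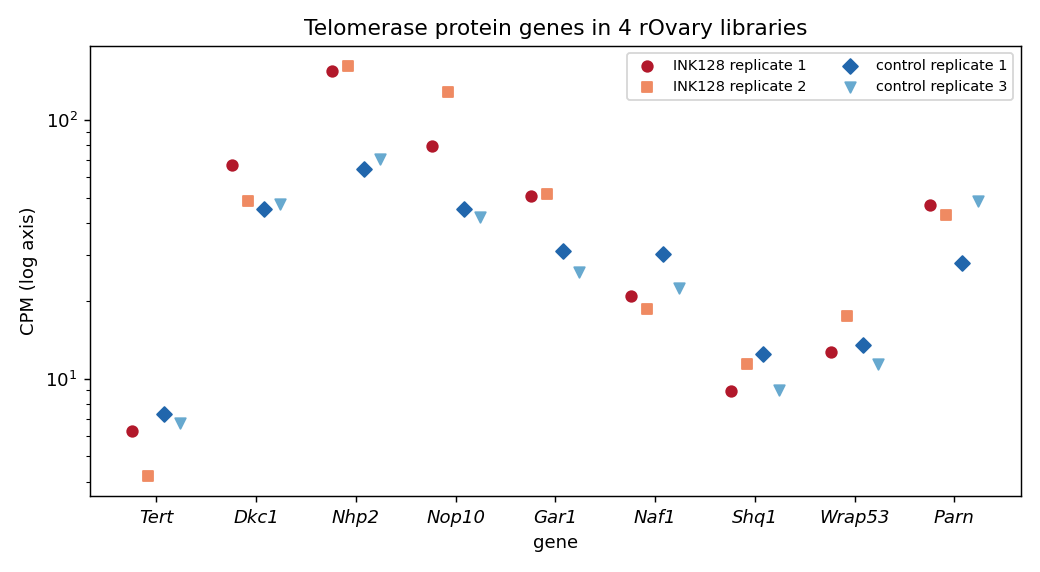
CPM (log axis) of the 9 telomerase protein genes in each of the 4 rOvary libraries, with 1 point per library. Nhp2, Nop10 and Gar1 are higher in both INK128 libraries than in either control, whereas Wrap53, Shq1 and Parn overlap between the groups.

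**Figure D2:**
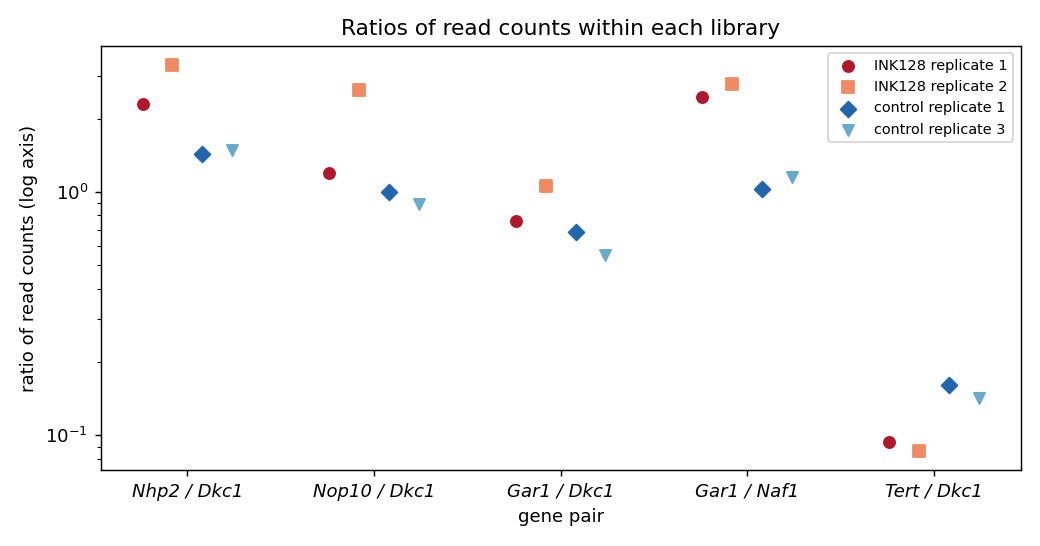
Ratios of read counts (log axis) for 5 pairs of genes within each library, with 1 point per library. Nhp2 to Dkc1 is 2.29 and 3.31 under INK128 against 1.43 and 1.49 in controls, while Tert to Dkc1 is lower in both INK128 libraries than in either control.

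The assembly factors Naf1 and Shq1 were not called. Naf1 holds the place of Gar1 in the immature particle at the site of transcription and is then exchanged for it. It had 20.8 and 18.6 CPM under INK128 and 30.2 and 22.4 CPM in controls, so that it lay lower in both INK128 libraries (log2 fold change -0.42, SE 0.26, adjusted p = 0.297, edgeR). The ratio of Gar1 to Naf1 read counts was 2.45 and 2.78 under INK128 and 1.03 and 1.15 in controls, the widest gap of the 7 ratios computed (1.26 on the log2 scale). Without control replicate 3, Naf1 passed the test (log2 fold change -0.62, adjusted p = 0.0479), in a fit that called 42.6% of all genes, and without control replicate 1 its value was -0.19 (adjusted p = 0.556). Shq1, which shields free dyskerin before it meets RNA, had 8.99 and 11.4 CPM under INK128 and 12.4 and 9.01 CPM in controls. The groups overlapped (log2 fold change -0.07, SE 0.33, adjusted p = 0.895), and the sign of this value changed when either replicate 1 was left out (0.08 without that of INK128, 0.18 without that of the controls).

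Wrap53, which binds the Cajal body box of Terc and brings the enzyme to Cajal bodies, had 12.7 and 17.5 CPM under INK128 and 13.5 and 11.4 CPM in controls. The groups overlapped, with a log2 fold change of 0.28 (SE 0.31, adjusted p = 0.536, edgeR), which was 0.02 without INK128 replicate 2 and 0.48 without INK128 replicate 1. Parn, the deadenylase that trims oligo(A) from the Terc 3′ end, had 47 and 43 CPM under INK128 and 28.1 and 48.6 CPM in controls. Only control replicate 1 was low, and the log2 fold change of 0.23 (SE 0.31, adjusted p = 0.612, edgeR) rested on it: the value was -0.11 without that library and 0.68 without control replicate 3 (adjusted p = 0.0165, where 42.6% of all genes were called).

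Of the 8 tested genes, 4 were higher in both INK128 libraries than in either control (Nhp2, Nop10, Gar1 and Dkc1), 1 was lower (Naf1) and 3 overlapped. Of all 11758 genes, 34.5% were higher without overlap and 34% were lower, and 68.5% did not overlap in 1 direction or the other, so non-overlap was common in these libraries. The median log2 fold change was 0.30 over the 8 genes and -0.03 over all tested genes. At an unadjusted p below 0.05 there were 3 of the 8, against 36.4% of all genes. At that filter DESeq2 called Nhp2, Nop10 and Gar1 (adjusted p = 1.2e-07, 0.00209 and 0.00723), where it called 28.6% of all genes (13.6% higher and 15.1% lower).

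The 3 highest fold changes belonged to the genes with the least summed exon sequence. Nop10 (1109 bases of exon), Nhp2 (1146) and Gar1 (1714) had the least exon sequence of the 8 tested genes, and the median over all genes was 4468 bases. By the median length of annotated transcripts the order was not the same, since Nop10 (1109 bases) was longer than Dkc1 (662.5) and Wrap53 (985). Across the tested genes the log2 fold change and the log2 exon length had a Pearson r of -0.314, given as a description since genes share their libraries and are not independent replicates. With an offset fitted for length in each library, the log2 fold change of Nhp2 was 0.67 (SE 0.2, adjusted p = 0.132), that of Nop10 was 0.70 (adjusted p = 0.181) and that of Gar1 was 0.40 (adjusted p = 0.224). In this edgeR fit 0 of the 8 telomerase genes and 0 of the 11758 genes were called, and 2 of the 8 and 27.1% of all genes had an unadjusted p below 0.05. The offsets left Dkc1, at 4121 bases, almost in place (0.35, adjusted p = 0.375), and they brought Naf1 to -0.57 (adjusted p = 0.218) and Tert, in the fit of genes above 1 CPM, to -0.10 (adjusted p = 0.875). Wrap53 and Shq1 changed sign, to -0.10 and 0.26. How far the offsets moved the values depended on the filter. Among genes above 1 CPM, where the Pearson r with length was -0.117, the log2 fold changes with offsets were 1.08 for Nhp2 (1.27 without offsets, adjusted p with offsets = 0.072), 1.11 for Nop10 (1.30 without, adjusted p with offsets = 0.0852) and 0.75 for Gar1 (0.90 without, adjusted p with offsets = 0.0877). At that filter Wrap53 kept its sign (0.21) and Shq1 was at 0.33. The part of length in these differences was not tested beyond the offsets.

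**Figure D3:**
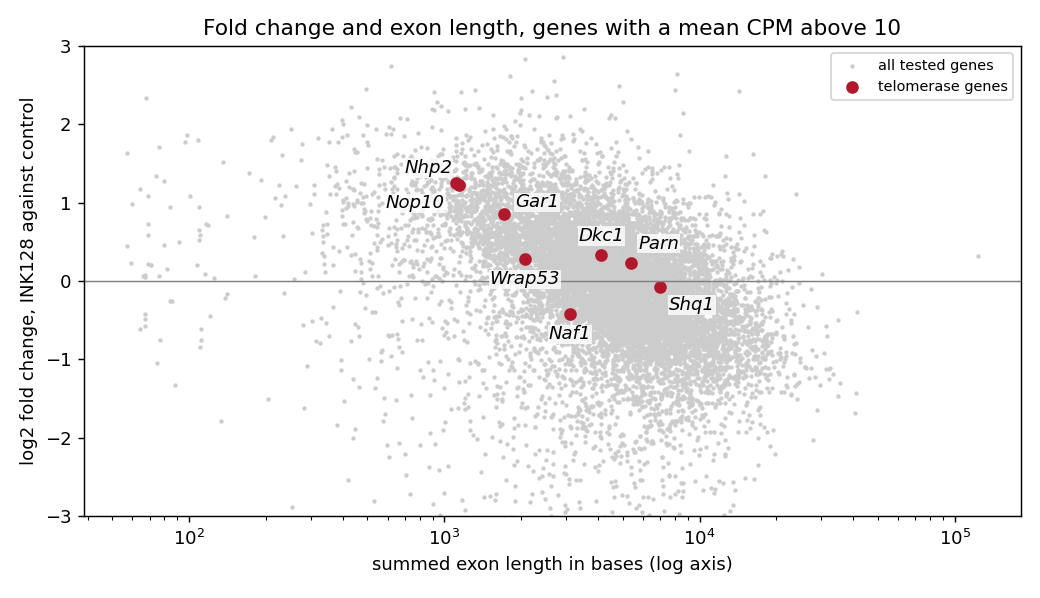
Log2 fold change of INK128 against control (y axis) by summed exon length in bases (log axis) for 11700 tested genes with a length, with the 8 telomerase genes in red; 197 genes beyond a log2 value of 3 in either direction are not drawn. Nhp2, Nop10 and Gar1 lie at the short end with positive values, and Dkc1, Parn and Shq1 lie near 0 at greater lengths.

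**Figure D4:**
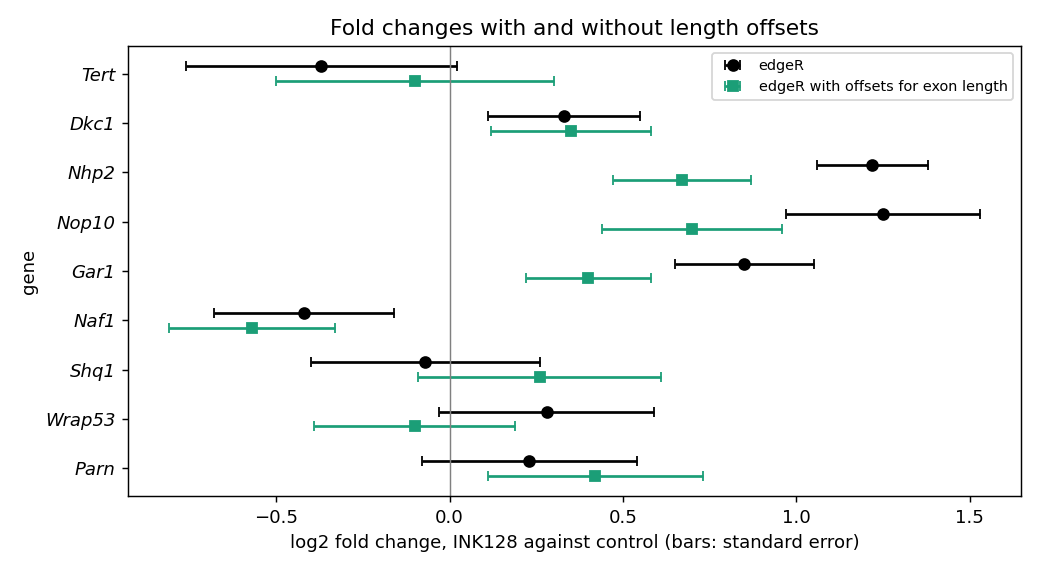
Log2 fold changes (x axis) of the tested telomerase genes with their standard errors as bars, without and with length offsets. Nhp2 moves from 1.22 to 0.67 and Nop10 from 1.25 to 0.70, and Wrap53 and Shq1 cross 0. Tert is drawn from the fit of genes above 1 CPM and the other genes from the fit of genes above 10 CPM.

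Levels were compared between genes per length, with the summed exon sequence of each gene as its length. By median transcript length Gar1 (521 bases) and Dkc1 (662.5) were shorter than Nop10 (1109), so the order below holds for summed exon length only. In mean CPM per kilobase of exon, Nhp2 (98.2) and Nop10 (66.6) led, followed by Gar1 (23.2) and Dkc1 (12.6). Parn (7.75), Naf1 (7.43) and Wrap53 (6.68) formed a middle group, and Shq1 (1.49) and Tert (1.07) were lowest among the protein genes. Terc stood at 0.0269. The ranges over libraries overlapped between the neighbours Nhp2 and Nop10, Gar1 and Dkc1, Parn and Naf1, and Naf1 and Wrap53, and neighbours kept this order within each of the 4 libraries except Parn and Naf1 and Naf1 and Wrap53, which kept it in 3.

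Reads could be shared with neighbours at a pair of loci. Nhp2 lies on the plus strand at chr11:51619735-51623714 (mm10), and 44 of its exon bases overlap Rmnd5b on the opposite strand. Rmnd5b had 111 and 100 CPM under INK128 and 70.6 and 95.6 CPM in controls (log2 fold change 0.34, adjusted p = 0.305). Dkc1 lies on the plus strand at chrX:75095854-75109777 and shares 45 exon bases with Mpp1. Whether reads were counted by strand is not given in the sources used here.

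The stretch upstream of Nhp2 is printed because Nhp2 was the 1 telomerase gene that passed the test. RefSeq (GRCm38.p6) gave promoters for 8 of the 10 genes. In the 250 bases before the start, CCAAT was found on either strand in Nhp2 and Wrap53, against 33.8% of 32851 promoters, and GGGCGG was found in Nhp2, Parn, Shq1 and Tert, against 32.7%. The E-box CACGTG, the site of Myc and Max, was found in Wrap53 (6.02% of promoters), TATAAA in Dkc1 (12.4%), and the NRF1 motif in none (3.74%). Starts with a C followed by 4 pyrimidines, the opening of the 5′ terminal oligopyrimidine mRNAs whose translation depends on mTOR, were seen in 0 of the 8 genes and in 2.51% of all promoters. The first letters were read at RefSeq starts only. For Nhp2 the RefSeq start (chr11:51619773) lies downstream of the GENCODE start (chr11:51619735), so part of its 250 searched bases is within the GENCODE gene. A match is a description of letters and does not show a bound site. In the line below, which covers chr11:51619643-51619732 on the plus strand, capitals mark CCAAT and GGGCGG read on either strand.
Nhp2 upstream: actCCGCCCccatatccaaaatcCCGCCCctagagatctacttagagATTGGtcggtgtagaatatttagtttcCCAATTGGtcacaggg

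The other genes of telomerase biogenesis more often had positive than negative fold changes under INK128, and few passed the test. Of 76 genes in 6 lists, 75 were tested, 61 had a positive and 14 a negative log2 fold change, against 48.6% positive over all tested genes. There were 46 higher without overlap and 11 lower, against 34.5% and 34% of all genes. The median was 0.38, against -0.03 over all tested genes. Those called were 2 genes, both higher, and 0 lower, a smaller share than the 6.37% of all genes called. Pabpn1, a nuclear poly(A) binding protein that takes part in Terc maturation, rose 2.24-fold (152 and 168 CPM against 63.4 and 79.4 CPM, adjusted p = 0.0486, edgeR). Gemin7, a subunit of the SMN complex of Cajal bodies and gems, rose 1.93-fold (109 and 113 CPM against 60.8 and 54.4 CPM, adjusted p = 0.0487). Neither passed with length offsets, when the median was 0.26 over the lists and 0.05 over all tested genes. Neither passed among genes above 1 CPM (adjusted p = 0.0558 for each, edgeR). Both calls were also lost with limma voom and without either INK128 library, where 0 genes of the whole table were called.

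Among the assembly chaperones, which load dyskerin and the box C/D proteins onto RNA, 0 of 8 were called by edgeR and the median was 0.54 (4 had an unadjusted p below 0.05, and DESeq2 called 2). Pih1d1 (54.7 and 64 CPM against 29.7 in each control) and Znhit6 (log2 fold change 0.95) stood highest, and Ruvbl1 (0.37) and Nolc1 (0.26) the lowest. The 4 box C/D core genes, whose proteins methylate ribosomal RNA, had values of 1.13 for Fbl, 0.92 for Nop56, 0.48 for Snu13 and 0.01 for Nop58, and edgeR called 0 (2 had an unadjusted p below 0.05, and DESeq2 called 2). The list for the Terc 3′ end, cap and decay held 24 genes with a median of 0.40, with 14 higher and 5 lower without overlap. Its 10 exosome genes, Exosc1 to Exosc10, were positive (median 0.70, 9 higher without overlap against 34.5% of all genes, 0 called by edgeR, 6 with an unadjusted p below 0.05 and 5 called by DESeq2), and its lowest values were -0.92 for the decapping enzyme Dcp2 and -0.70 for the cap hypermethylase Tgs1, both called lower by DESeq2 and not by edgeR. The Cajal body and Wrap53 folding list held 17 tested genes with a median of 0.40, and its 8 CCT chaperonin genes, whose product folds Wrap53, were higher without overlap (median 0.41, 0 called by edgeR, 3 with an unadjusted p below 0.05 and 2 called by DESeq2), while Gemin5 was lowest at -0.41. The exosome and CCT groups, Dcp2, Tgs1 and Gemin5 were singled out after their values were seen. Apart from Pabpn1 and Gemin7, 0 genes of these lists were called by edgeR. Over the 75 genes, 24 had an unadjusted p below 0.05 (36.4% of all genes did), and DESeq2 called 19, 14 higher and 5 lower (28.6% of all genes, 13.6% higher and 15.1% lower).

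The Tert folding list had a median of 0.42 over 12 genes, of which edgeR called 0 (2 had an unadjusted p below 0.05, and DESeq2 called 1 higher and 1 lower). Stub1 (1.02) and Ptges3, the p23 co-chaperone of Tert (0.66), had the highest log2 fold changes, and Hsp90aa1 (-0.67) and Gnl3l (-0.62) the lowest. Hsp90aa1 was high in control replicate 1 alone (1070 CPM, against 419 to 473 CPM in the other libraries). The transcription factors known to act on Tert had a median of -0.31 over 10 genes and 6 negative values, and edgeR called 0 (1 had an unadjusted p below 0.05, and DESeq2 called 2, both lower). Max (0.31) and Myc (0.27) had the highest log2 fold changes, and Wt1 (-1.87) and Mxd1 (-1.28) the lowest. Values did not divide by known role, since the activators Sp1 (-0.93), Klf4 (-0.54) and Ctnnb1 (-0.36), named here after their values were seen, were negative like the repressors Wt1 and Mxd1, and the repressors Men1 (0.25) and Trp53 (0.26) lay near Myc. Mxd1 had 13.7 and 15.4 CPM under INK128, and of the controls replicate 1 had 50.8 and replicate 3 had 19.5 CPM. Wt1 is also a Sertoli cell gene, and its values were 57.8 and 47.6 CPM under INK128, 319 CPM in control replicate 1, the library with Sertoli cell markers and Y-linked counts, and 66.4 CPM in control replicate 3.

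**Figure D5:**
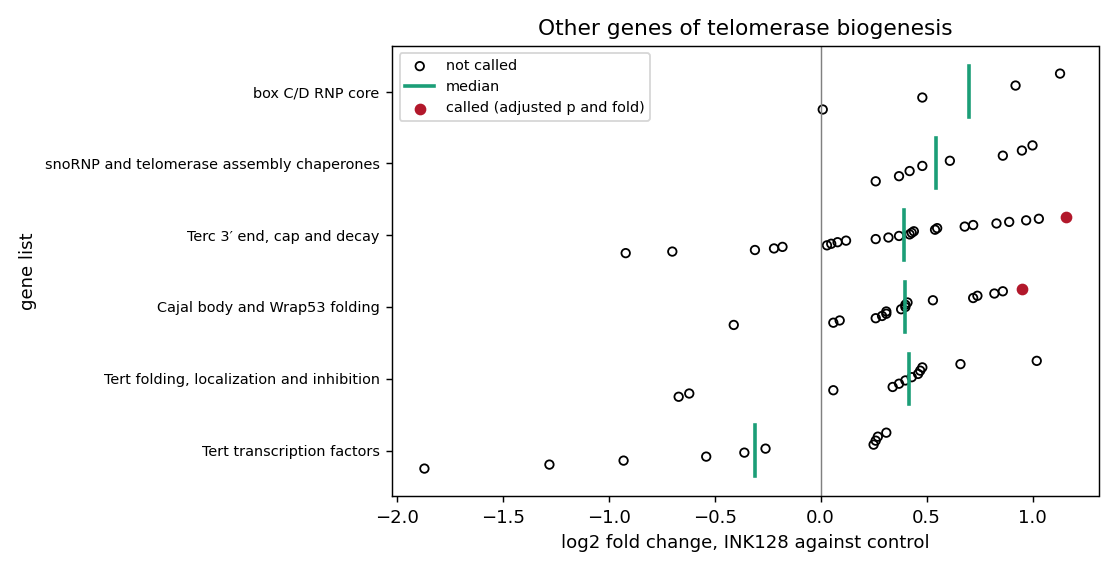
Log2 fold change of INK128 against control (x axis) for the tested genes of 6 lists of telomerase biogenesis, with 1 circle per gene and a bar at the median of each list. The list of Tert transcription factors has its median at -0.31 and the other lists have medians between 0.40 and 0.70; the 2 called genes are filled.

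The RNAs that share the H/ACA core with Terc were counted at low level. The 40 annotated Snora symbols summed to 30.2 and 46.9 CPM under INK128 and 15.6 and 13 CPM in controls. Of these, 10 were above 1 CPM and could be tested, and 10 of 10 were higher under INK128 without overlap, against 30.9% of all genes at that filter. EdgeR called 0 of the 10, of which 7 had an unadjusted p below 0.05, and DESeq2 called 3. The box C/D RNAs (98 Snord symbols) summed to 57.5 and 91.7 CPM against 34.3 and 26.3 CPM, with 13 of 18 tested higher without overlap. EdgeR called 0 of the 18, of which 6 had an unadjusted p below 0.05, and DESeq2 called 2. At this filter edgeR called 0 of 17631 genes, 5797 (32.9%) had an unadjusted p below 0.05, and DESeq2 called 4193 (23.8%, with 10.2% higher and 13.6% lower). Snora57 had 44 and 76 counts under INK128 and 3 and 11 in controls (log2 fold change 3.32, SE 0.83, adjusted p = 0.0774), and Snord104 had 108 and 251 against 18 and 25 (3.27, adjusted p = 0.0558). At the low end Snord55 had 19 and 54 against 37 and 30 (0.33, adjusted p = 0.754) and Snord14d had 18 and 50 against 85 and 7 (-0.25, adjusted p = 0.898), and their groups overlapped. The small Cajal body RNAs, 9 symbols, had 25 and 23 counts in all against 9 and 7. Most such RNAs lie in introns of other genes and were read here from polyA libraries, so the counts do not separate mature RNA from fragments of host transcripts.

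The genes most like the core members across the 4 libraries were found by the root mean square distance of centred log2 CPM (pseudocount 0.5) among 11758 genes. For Nhp2 these were Dgcr6 (0.0188), Rack1 (0.0227), Vps37d (0.0365), Zmat5 (0.0387) and Psmg3 (0.0428). Rack1, a protein of the small ribosomal subunit, had 1930 and 2110 CPM under INK128 and 819 and 891 CPM in controls. For Dkc1 they were Col4a4 (0.0154), Trip13 (0.0427), Rab28 (0.0459), Cactin (0.0504) and Eif2b4 (0.0508). With 4 libraries this likeness describes a shared profile only.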

How the data were processed

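RNA-seq was measured in 4 rOvary libraries. Per the labels and the study's methods, the authors used Trimmomatic for trimming, HISAT2 for alignment on mm10 and featureCounts for gene counts (versions and strand setting not given in the sources used here), and deposited raw read counts. Exon lengths were taken from GENCODE for mm10. CPM were counts divided by the library's total in the tested genes and by TMM factors (0.94 to 1.051). Genes with a mean above 10 CPM, or in a second fit above 1 CPM, were tested with edgeR 4.0.16 (quasi-likelihood, R 4.3.3) and Benjamini-Hochberg adjustment; calls needed more than a 1.5-fold change with adjusted p under 0.05. DESeq2 1.42.0, limma voom 3.58.1, other scalings and filters, length and GC offsets (spline, 6 degrees of freedom) and leaving out each library were alternatives. A floor of 3 counts was 0.13 to 0.165 CPM. Named genes were all 10 members, called genes of each list, or else the 2 highest and 2 lowest fold changes, and the 5 genes nearest to Dkc1 and Nhp2. Members, lists and tests were chosen with earlier results of these data known. The script was tested on simulated data. Columns of no sample numbered 0. Control replicate 2 was not analysed here.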

Additional observations from a re-analysis of the deposited data

How the results depend on the processing

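The telomerase gene count of 1 (Nhp2) became 3 with DESeq2, 2 with no filter and 0 with limma voom, with length offsets and at a mean above 1 CPM, and ranged from 0 (without either INK128 library) to 5 without 1 library (3 without control replicate 1 and 5 without control replicate 3). Over the whole table the count of 749 became 3367 with DESeq2, 3105 with no filter and 0 with limma voom, with length offsets and at a mean above 1 CPM, and ranged from 0 to 5387 without 1 library (5387 without control replicate 1, 5011 without control replicate 3). Where 1 library was left out, the lone library of its group was taken to vary like the other group. At a mean above 1 CPM the telomerase count of 0 became 3 with DESeq2, 2 with no filter and 1 at a mean above 10 CPM, and ranged from 0 to 4 without 1 library. The 2 called pathway genes became 19 with DESeq2 and 0 with length offsets. With length offsets above 10 CPM Wrap53 reversed to -0.10 and Shq1 to 0.26, and Shq1 reversed to 0.06 with GC offsets, 0.08 without INK128 replicate 1 and 0.18 without control replicate 1. Without 1 library Shq1 ranged from -0.27 to 0.18 and Parn from -0.11, reversed, to 0.68. Scaling by library totals moved the median of all genes to -0.16 on the log2 scale and the share of calls that were higher from 49.9% to 31.8%. Of the members' values under the alternatives, 6 reversed, 96 kept their direction and side of the threshold, 9 passed it and 5 no longer did. The cause of these shifts was not tested. No paired analysis was run, since the labels give replicate numbers and no pairing of libraries. Terc, at 1 count in all, was not compared, and with 2 libraries a group small changes of Tert, Shq1 and Wrap53 may lie within the spread.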

Other observations

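Within the 7 ratios of read counts, Tert to Dkc1 was 0.0937 and 0.0863 under INK128 and 0.161 and 0.143 in controls, without overlap (-0.76 on the log2 scale). Nop10 to Dkc1 was 1.19 and 2.63 under INK128 and 1 and 0.895 in controls, and Nhp2 to Gar1 was 3.02 and 3.13 against 2.09 and 2.72. The RNase P RNA Rpph1, another RNA without a poly(A) tail, had 10 and 57 counts under INK128 and 68 and 5 in controls, so that its spread within each group was wider than the difference between the groups.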
